A study of Bos taurus with 15 samples.

Results

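The genes described here encode acute phase proteins that adipose tissue is known to make: HP, SAA3, M-SAA3.2, LBP, ORM1, LCN2, PTX3 and CRP. They were taken by symbol from the gene tables of the study, which list 13896 genes. Of the 8 symbols, 7 had a row in all 6 tables, and LCN2 was not analysed here. The study followed subcutaneous adipose tissue of primiparous Prim Holstein cows around calving, in 5 groups of 3 libraries. The samples before calving were taken 1 month before calving and ahead of the diet experiment, and the same 3 libraries serve as the reference for both diets. The cows then received a low energy (LE) or a high energy (HE) diet, and tissue was sampled 1 week and 16 weeks after calving. The paper of the study describes cows as severe or moderate in negative energy balance, the state in which milk takes more energy than the feed supplies, by their balance at 1 week, whereas the labels give the diet, which defines the groups here. Sample numbers pair the severe cows with LE and the moderate cows with HE. Tissue came from the dewlap, and 3 cows with a more extreme balance were sequenced per balance group, so the libraries are not a random draw of the herd. The comparisons ask how the tissue changed from before calving to 1 week, from 1 to 16 weeks, and between the diets at each time.

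Acute phase proteins are plasma proteins whose level changes within hours to days of infection, injury or metabolic stress. The liver is their main source, under interleukin 6, interleukin 1 and tumour necrosis factor, which act through STAT3, NF-kappaB and C/EBP factors, and fat cells and macrophages of adipose tissue make several of them as well. In cattle, haptoglobin and serum amyloid A are the major positive acute phase proteins and are used as markers of disease after calving.

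For each library, the number of reads on the exons of a gene, and on the entire gene with its introns, was solved from the mean counts in the tables. A normalized count is the number of reads divided by the size factor of the library, on a single scale over the 15 libraries, and it can be compared between libraries but not between genes, since gene length is not taken into account. The libraries within a group are numbered from the deepest to the shallowest, and the number has no other meaning. Exonic reads on genes came to 8076601 to 14006452 per library before calving, 2028309 to 6993576 in HE at 1 week, 2819721 to 7518057 in HE at 16 weeks, 10995548 to 13652685 in LE at 1 week and 11917237 to 14772310 in LE at 16 weeks. The HE libraries were thus the shallowest in reads on genes, and in the shallowest of them 1 read was worth 3.69 normalized counts. A gene was called when its adjusted P was below 0.01 with the same sign in both the exonic and the entire-gene analysis (limma, Benjamini-Hochberg over all genes tested). Each log2 difference is the first group named minus the second. A positive difference between 1 and 16 weeks thus means a higher level at 1 week. The labels do not say which libraries come from the same cow. The standard errors and P-values rest on the spread between these libraries and take no account of shared cows.

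None of the 7 members with values was called in any of the 6 comparisons. Between before calving and HE at 1 week, 0 of the 5 members tested were called, against 2.4% of all genes. In the exonic analysis alone, HP and LBP passed, against 17.0% of all genes, and the same 2 members did not overlap between the groups, against 46.7% of all genes. Between before calving and LE at 1 week, 0 of 5 members were called (0.085% of all genes), none passed with exonic reads alone (0.69%) and none was free of overlap (19.7%). From 1 to 16 weeks, no gene at all was called in HE (0.0% in both analyses and 0.0% with exonic reads) or in LE (0.0% and 0.0%), and none of the 3 members tested in HE or of the 5 tested in LE was free of overlap (20.2% and 11.9% of all genes). Between LE and HE at 1 week, 0 of 5 members were called (0.0% of all genes), LBP alone passed with exonic reads (3.32%), and HP and LBP did not overlap (39.8%). Between LE and HE at 16 weeks, 0 of 4 members were called (4.5%), none passed with exonic reads (11.2%) and none was free of overlap (44.1%). At an unadjusted threshold of 0.05 in both analyses, the counts of members were 2, 1, 0, 0, 3 and 0 in the order of the comparisons above, against 26.5, 10.1, 8.41, 4.72, 22.1 and 26.9% of all genes. limma voom called 0 members in each. The shares of members are read against the high shares of all genes that differed from HE: 5 members are too few to set them apart.

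Haptoglobin, the product of HP, binds free haemoglobin and is cleared through the macrophage receptor CD163. Before calving, the 3 libraries held 555, 383 and 284 exonic reads of HP, or 321, 235 and 266 normalized counts. The libraries before calving were close to each other, with a mean of 274 ± 43.4 (SD, n = 3). In HE at 1 week, 44, 2 and 17 reads were found, or 46.1, 5.43 and 62.8 normalized counts. All HE libraries at 1 week lay below all libraries before calving. The difference on the scale of log2(normalized count + 0.5) was 3.40 (SE 0.73), or 10.6-fold, with adjusted P = 0.00635 in the exonic analysis and a difference of 2.61 (SE 0.64) with adjusted P = 0.0449 on the entire gene. The log2 difference was 2.34 without HE 1 week library 2, which held 2 reads, 4.02 without HE 1 week library 3 and between these values in the other 4 fits that left out a library. It was past the exonic threshold in none of the 3 fits that left out a library before calving, where adjusted P ran from 0.0233 to 0.0265, nor in a fit over 15 libraries (0.0184). In the 3 fits without a library before calving, 670 to 974 genes in all passed with exonic reads, against 1788 with all 6 libraries. In the fit over 15 libraries, 2792 genes passed. In LE at 1 week, HP reached 1084, 266 and 169 normalized counts, from 1929, 490 and 257 reads. The first of these libraries held the most HP of all 15, and of the other two, the second lay within the range before calving and the third below it.

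The log2 difference of HP between before calving and LE at 1 week was -0.43 (SE 0.58, adjusted P = 0.794), with a 95% interval from -1.75 to 0.90, so a change of either sign is possible at this spread. Between LE and HE at 1 week it was 3.84 (SE 0.91, adjusted P = 0.0217 with exonic reads, and 3.14 with adjusted P = 0.0757 on the entire gene). The groups did not overlap in HP, and the difference missed the threshold. At 16 weeks, HP stood at 493, 28.9 and 126 normalized counts in LE and at 156, 25.8 and 16.3 in HE. The libraries of each diet thus spread widely in HP, and the groups overlapped (log2 difference 1.58, SE 1.04, adjusted P = 0.289). That difference was 0.58 without LE 16 weeks library 1 and 2.61 without LE 16 weeks library 2. The means fell in the order LE 1 week (506), before calving (274), LE 16 weeks (216), HE 16 weeks (66.1) and HE 1 week (38.1), and each neighbouring pair in that order overlapped.

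**Figure D1:**
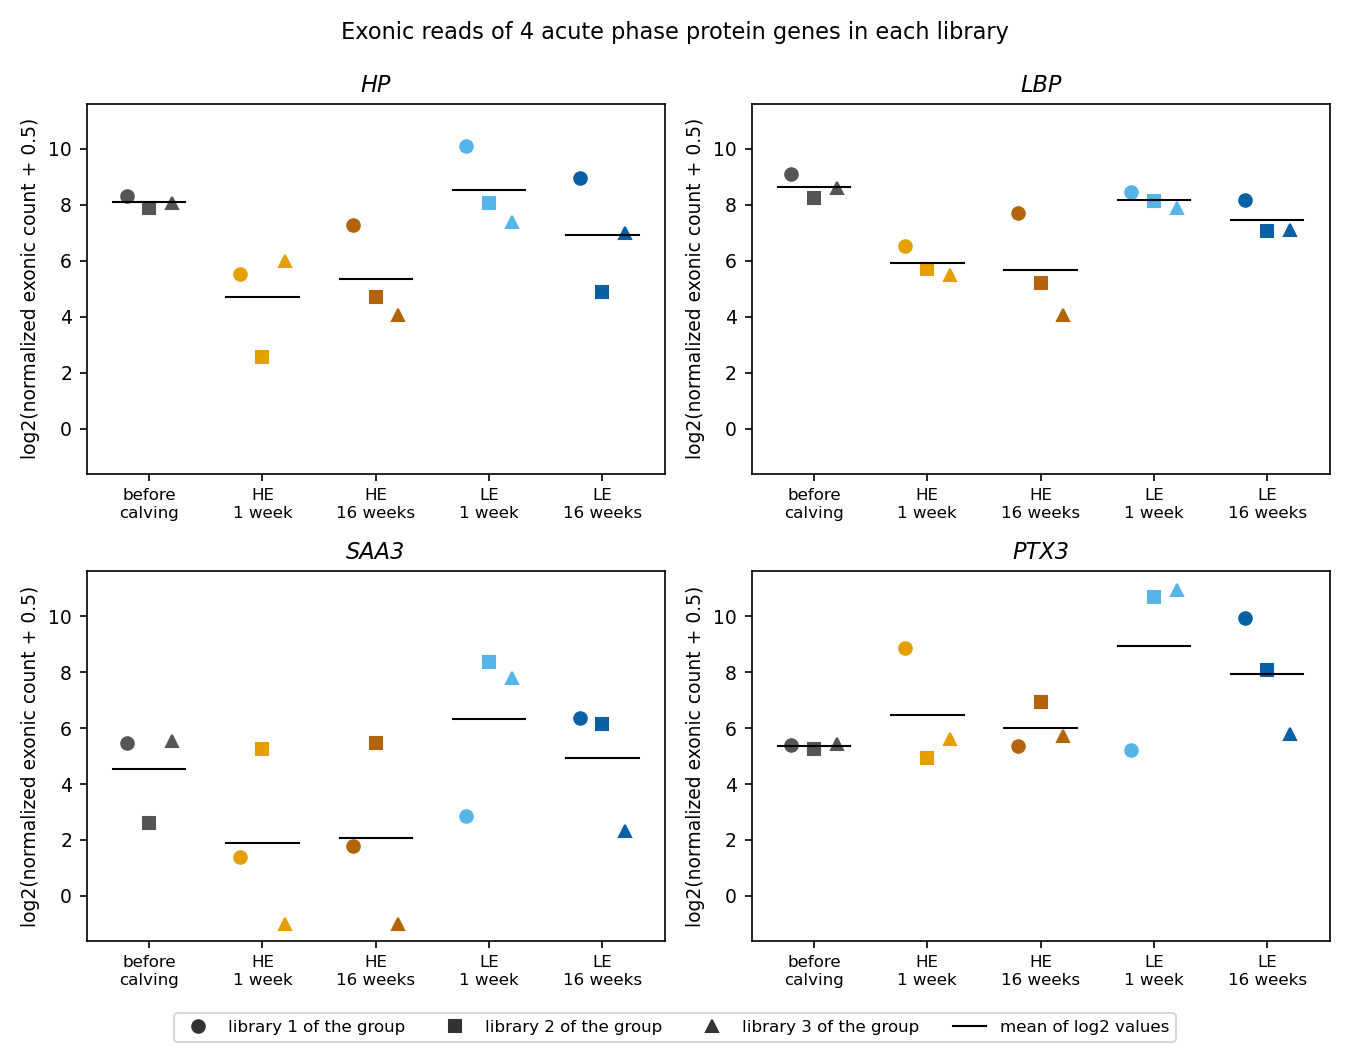
Normalized exonic counts of HP, LBP, SAA3 and PTX3, plotted as log2(count + 0.5), in each of the 15 libraries by group. Points are libraries, with shapes for the library number within the group, and bars are the means of the log2 values. HP and LBP are lower in every HE 1 week library than in every library before calving, while SAA3 and PTX3 spread widely within the LE groups.

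LBP, the lipopolysaccharide-binding protein, carries bacterial lipopolysaccharide to CD14 and the TLR4 and LY96 complex. Its exonic reads before calving were 940, 489 and 412, or 543, 300 and 386 normalized counts. In HE at 1 week they were 88, 19 and 12, or 92.2, 51.6 and 44.3 normalized counts. The highest HE library was thus below the lowest library before calving. The log2 difference was 2.75 (SE 0.35, adjusted P = 0.00055), or 6.72-fold, with exonic reads, and 1.59 (SE 0.27, adjusted P = 0.0152), or 3.01-fold, on the entire gene. With exonic reads it stayed past the threshold without any 1 of the 6 libraries (adjusted P 0.000176 to 0.00416) and under the other settings (0.000463 to 0.00325). In LE at 1 week, LBP had 352, 281 and 237 normalized counts, from 627, 517 and 362 reads. These libraries overlapped those before calving (log2 difference 0.47, SE 0.26, adjusted P = 0.453) and lay above all HE libraries at 1 week.

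The difference of LBP between LE and HE at 1 week was 2.28 on the log2 scale (SE 0.34, adjusted P = 0.00756) with exonic reads, or 4.86-fold, and 1.18 (SE 0.28, adjusted P = 0.0618) on the entire gene. The exonic call was lost with limma voom (adjusted P = 0.013), in a fit over 15 libraries (0.0154) and in each fit that left out a library other than HE 1 week library 1 (0.0186 to 0.0426). In those 5 fits, 0 to 25 genes in all passed with exonic reads, against 348 with all 6 libraries. With limma voom 161 genes passed, and in the fit over 15 libraries 1719. The log2 difference of LBP over the 6 fits that left out a library stayed between 2.06 and 2.61. At 16 weeks LBP had 290, 132 and 138 normalized counts in LE and 206, 36.1 and 16.3 in HE. A single HE library reached into the LE range (log2 difference 1.80, SE 0.78, adjusted P = 0.121), and without it, HE 16 weeks library 1, the difference was the largest of the leave-one-out fits at 2.82 (adjusted P = 0.00645). The means of LBP fell in the order before calving (410), LE 1 week (290), LE 16 weeks (187), HE 16 weeks (86.2) and HE 1 week (62.7), with an overlap between each pair of neighbours.

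The 2 analyses of LBP differ by the reads outside its exons. These numbered 212, 135 and 175 before calving and 77, 34 and 37 in HE at 1 week, or 118, 89.7 and 133 against 82.5, 96.2 and 134 normalized counts. The ranges of these reads overlapped almost fully, with means of 114 ± 22.2 and 104 ± 26.6 (SD, n = 3 each), whereas the exonic reads of the same libraries did not overlap. The share of LBP reads outside exons was 18.4, 21.6 and 29.8% before calving, and 46.7, 64.2 and 75.5% in HE at 1 week. The exact 95% binomial interval, which covers counting error only, was 26.1 to 33.7% for the highest of the former and 38.9 to 54.6% for the lowest of the latter. In LE at 1 week the share was 24.3, 16.1 and 29.4%, in LE at 16 weeks 26.4, 30.9 and 15.8%, and in HE at 16 weeks 46.3, 44.0 and 53.8%. All 6 HE libraries thus had a larger share of LBP reads outside exons than all 9 other libraries. In HE at 16 weeks the counts outside exons were 179, 31.0 and 23.6 normalized counts, so the latter 2 libraries were below those before calving on both measures. HE 16 weeks libraries 2 and 3 held 25 and 13 LBP reads, and their intervals of 24.4 to 65.1% and 25.1 to 80.8% overlapped that of LE 16 weeks library 2 (25.8 to 36.3%).

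Over all genes the share did not move this way. The median share over genes was 39.0 to 56.6% before calving and 43.7 to 46.3% in HE at 1 week. Of the genes with at least 20 entire-gene reads in each library, 7.2% had, like LBP, a higher share in every HE library at 1 week than in every library before calving, and 8.12% did so against LE at 1 week. The opposite, a lower share in every HE library, held for 22.7% and 24.1% of these genes. In HE 1 week libraries 2 and 3, the share was also higher for HP, at 66.7% of 6 and 37.0% of 27 reads against 0.18 to 2.74% before calving, and for PTX3, at 38.9% of 18 reads and 13 of 26 reads against 6.15 to 26.8%. In library 1 it was 2.22% for HP, and for PTX3 438 of 484 reads were exonic. For SAA3 the share was 0.0% of 2 reads in library 1 and 0.0% of 14 in library 2, against 0.0 to 9.26% before calving. Library 3 held 0 SAA3 reads. The tables do not say what the reads outside exons are, and the libraries were made with a kit that keeps the strand, while the strand setting of the counting is not given in the sources used here.

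**Figure D2:**
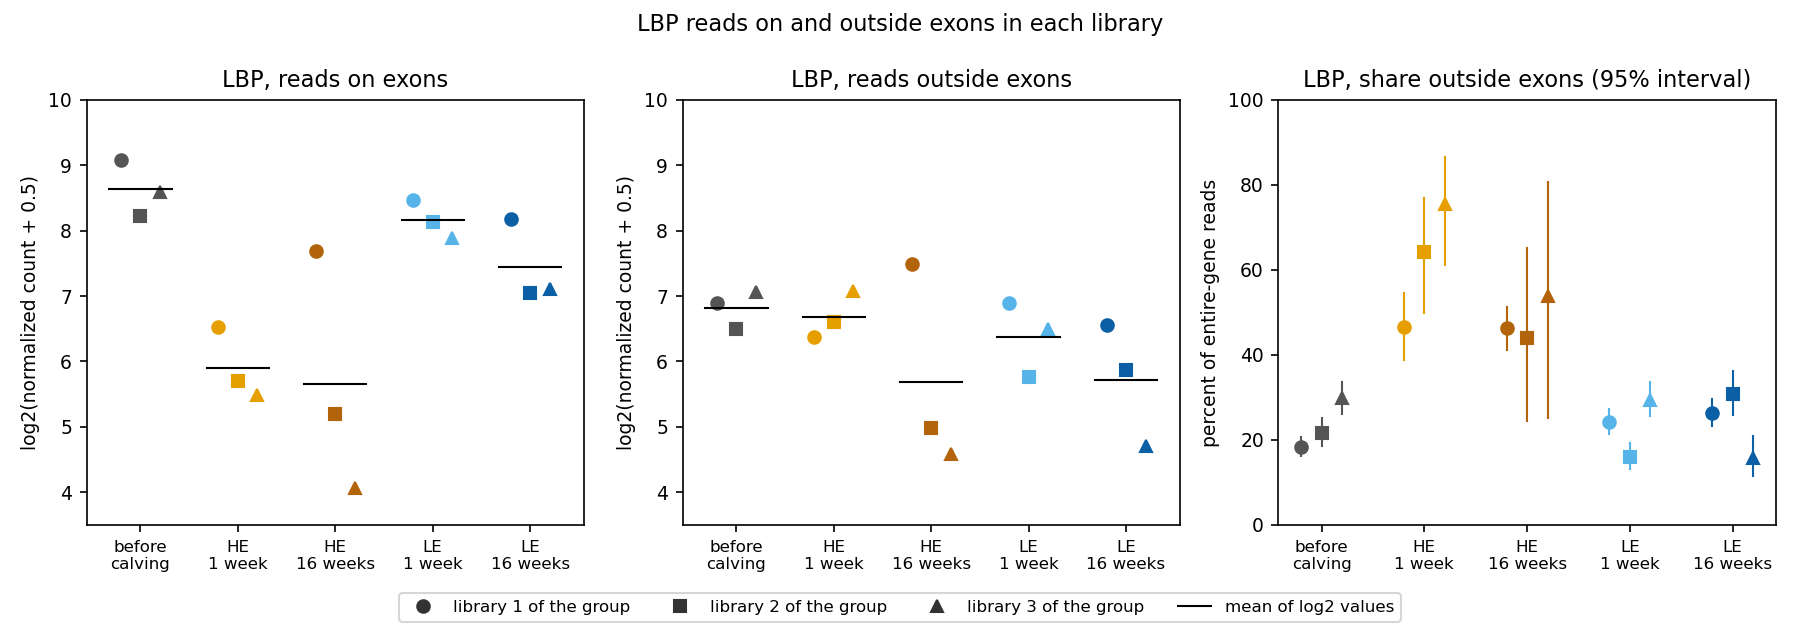
LBP in each library: normalized counts on exons (left) and outside exons (middle), as log2(count + 0.5), and the share of entire-gene reads outside exons in percent with exact 95% binomial intervals (right). Exonic counts are lower in HE at 1 week than before calving, while counts outside exons overlap. The share outside exons is 44.0 to 75.5% in the 6 HE libraries and 15.8 to 30.9% in the other 9.

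PTX3 is the long pentraxin, a pattern recognition molecule that is made locally by macrophages, endothelial cells and fat cells, and that joins TNFAIP6 in the hyaluronan matrix. Before calving it had 71, 61 and 45 exonic reads, or 41.0, 37.4 and 42.2 normalized counts. These are the closest values of any group, with a mean of 40.2 ± 2.50 (SD, n = 3). In LE at 1 week the reads were 65, 2999 and 2956, or 36.5, 1628 and 1939 normalized counts. The first LE library stood at the level before calving and the other two far above it, with a ratio of highest to lowest of 53.1. The log2 difference between before calving and LE at 1 week was -3.59 (SE 1.29), or 12.1-fold lower before calving, with adjusted P = 0.233 and a 95% interval from -6.54 to -0.65. Without LE 1 week library 1, the difference was -5.46 (SE 0.20, adjusted P = 9.89e-06) and PTX3 was called, in a fit that called 184 genes against 9 with all libraries.

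In HE at 1 week PTX3 had 459, 29.9 and 48.0 normalized counts, from 438, 11 and 13 reads. Here a single library stood above the other two, and the group overlapped both the libraries before calving and those of LE. The log2 difference was -1.09 (SE 0.83, adjusted P = 0.348) between before calving and HE at 1 week and 2.50 (SE 1.47, adjusted P = 0.256) between LE and HE at 1 week. The latter was 4.36 (adjusted P = 0.0364) without LE 1 week library 1 and 1.64 (adjusted P = 0.531) without LE 1 week library 2, and it was lower still without library 3 (adjusted P = 0.569). At 16 weeks, PTX3 had 973, 268 and 54.4 normalized counts in LE and 40.3, 121 and 51.7 in HE. The LE libraries differed 17.9-fold among themselves, and the log2 difference between the diets was 1.94 (SE 0.88, adjusted P = 0.135, 95% interval -0.04 to 3.92). Without LE 16 weeks library 1 it was 0.94 (adjusted P = 0.386), and without LE 16 weeks library 3 it was 3.01 (0.0133). Between 1 and 16 weeks, PTX3 differed by 0.99 (SE 1.56, adjusted P = 0.875) in LE and by 0.45 (SE 0.90, adjusted P = 0.835) in HE on the log2 scale, higher at 1 week in both. In the current RefSeq gene order of cattle (ARS-UCD2.0, used for neighbours only) PTX3 lies inside VEPH1, and as the strand setting of the counting is not given, reads of VEPH1 may be counted for PTX3 in their shared span.

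SAA3 encodes the serum amyloid A form made mainly outside the liver, including in fat and the udder. It had 75, 9 and 49 exonic reads before calving, or 43.3, 5.52 and 46.0 normalized counts. In LE at 1 week the values were 12, 602 and 340 reads, or 6.74, 327 and 223 normalized counts. The LE libraries thus spanned a ratio of 48.5, and the library lowest in SAA3 was again the one lowest in PTX3. In HE at 1 week SAA3 had 2, 14 and 0 reads, or 2.09, 38.0 and 0 normalized counts. The library without a read allows up to 11.1 normalized counts, the worth of 3 reads there. At 16 weeks, SAA3 stood at 81.4, 69.5 and 4.53 normalized counts in LE and at 2.95, 43.9 and 0 in HE, where the last library allows up to 8.16.

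The largest difference of SAA3 was that between LE and HE at 1 week, at 4.40 on the log2 scale (SE 1.72, adjusted P = 0.102, 95% interval 0.53 to 8.27). The groups overlapped, since LE library 1 lay below HE library 2. The difference was 6.14 without that LE library, 6.05 without that HE library and 3.02 without HE library 3, and 2.99 with a pseudocount of 5. Between before calving and LE at 1 week the difference was -1.82 (SE 1.41, adjusted P = 0.621), and between before calving and HE at 1 week it was 2.54 (SE 1.51, adjusted P = 0.226), or 1.19 without HE library 3, which held no SAA3 read, and 4.16 without HE library 2. Between the diets at 16 weeks it was 2.83 (SE 1.60, adjusted P = 0.220). Between 1 and 16 weeks in LE it was 1.39 (SE 1.56, adjusted P = 0.819), higher at 1 week. Under the other settings, the difference was as low as 1.63 between the diets at 16 weeks and 1.25 between before calving and HE at 1 week. Over the fits that left out a library, SAA3 ran from -3.57 to -0.80 between before calving and LE at 1 week. It ran from 1.31 (without HE 16 weeks library 3) to 4.50 (without HE 16 weeks library 2) between the diets at 16 weeks. For 1 week minus 16 weeks in LE, it ran from 0.067 to 3.15. The ends of the first range came without LE 1 week libraries 1 and 2, and those of the last without LE 16 weeks library 3 and LE 1 week library 1. In HE from 1 to 16 weeks SAA3 was not tested: each test used the size factors of its own table, and there the mean of SAA3 was 7.17 (14.5 on the scale of the 15 libraries), below the required 10.

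M-SAA3.2, a near copy of SAA3 known for its expression in the mammary gland, was barely seen. It had 0 to 4 exonic reads per library, 15 in all, with 0 reads in each HE library at 16 weeks, and did not reach the level for a test. SAA3 and M-SAA3.2 lie close together in the same gene cluster and their reads may be shared or lost in the alignment, so the split between them is uncertain. Of the mammary markers, CSN1S1, CSN3 and LALBA, which encode milk proteins, and the transcription factor ELF5 had at most 5, 2, 5 and 4 reads in any library. The other markers of that list are not specific to the udder and were read more, with up to 891 reads for KRT8, 252 for KRT18 and 270 for LTF. The sum of the list was highest in LE 1 week library 2 (767 normalized counts), which also held the most SAA3 (327), and its part in the result was not tested.

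CRP, the short pentraxin that the liver makes, had 2 to 31 exonic reads per library, or 5.44 to 40.7 normalized counts. Its means were 14.7 ± 1.43 before calving, 22.7 ± 15.7 in HE at 1 week, 9.31 ± 4.84 in HE at 16 weeks, 13.0 ± 5.74 in LE at 1 week and 10.2 ± 0.91 in LE at 16 weeks (SD, n = 3 each). It could be tested in 4 of the 6 comparisons, where the log2 differences ran from -0.66 to 0.28 with adjusted P from 0.540 to 0.926. The interval from before calving to LE at 1 week, -0.86 to 1.42, leaves room for changes of either sign. ORM1 encodes the lipid-binding orosomucoid. With 0 to 13 reads per library, it stayed below the level for a test in all comparisons.

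The change from 1 to 16 weeks was also compared between the diets, over the 12 libraries after calving, since these changes share no library. Each change was taken as 1 week minus 16 weeks, and the change in HE was subtracted from that in LE. A positive value is thus a larger fall, or a smaller rise, from 1 to 16 weeks in LE than in HE. For 5 members tested, the difference of the changes was 2.24 (SE 1.60) for HP, 1.60 (SE 2.71) for SAA3, 0.46 (SE 0.96) for LBP, 0.55 (SE 2.00) for PTX3 and -0.93 (SE 0.92) for CRP on the log2 scale. Adjusted P ran from 0.902 to 0.976, and 0 members and 0.0% of all genes were called. At an unadjusted threshold of 0.05 in both analyses, 0 members passed, against 3.72% of all genes. The standard errors show that differences of several fold in these changes could not be seen.

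**Figure D3:**
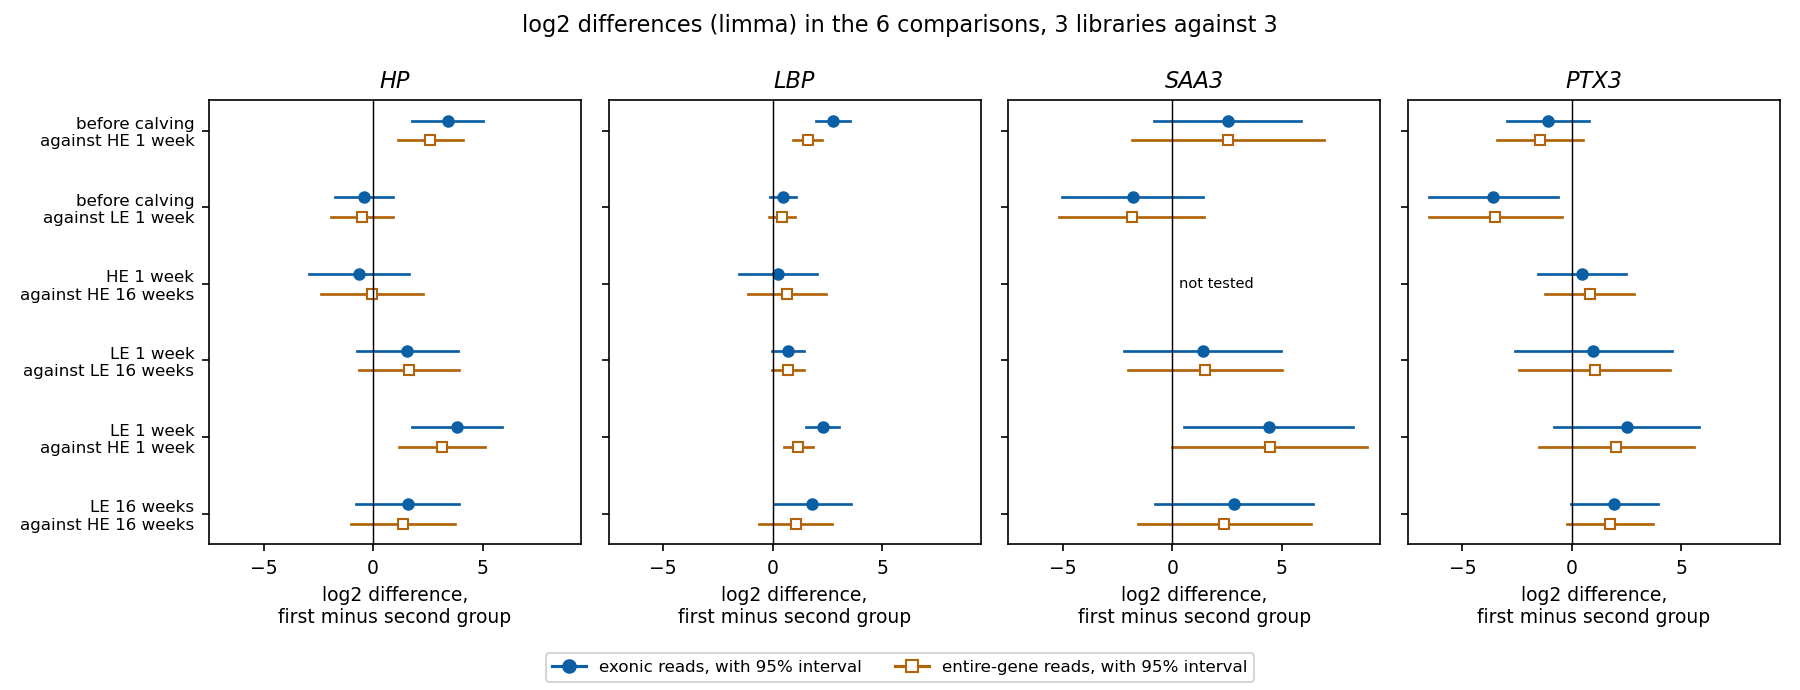
Differences in log2(normalized count + 0.5) of HP, LBP, SAA3 and PTX3 in the 6 comparisons, first minus second group, with 95% intervals from limma. Filled circles are exonic reads and open squares entire-gene reads, and positive values are higher in the first group. HP and LBP lie to the right of 0 where HE at 1 week is compared with before calving and with LE at 1 week, LBP less so on the entire gene, and the intervals of SAA3 and PTX3 span many fold.

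The order of the libraries differed between members in some groups. In LE at 1 week, library 1 had the most HP (1084) and the least SAA3 (6.74) and PTX3 (36.5) of its group, while libraries 2 and 3 had 266 and 169 of HP beside 327 and 223 of SAA3 and 1628 and 1939 of PTX3. In LE at 16 weeks, library 1 was highest in HP (493), SAA3 (81.4) and PTX3 (973) alike, and library 3 was lowest in SAA3 (4.53) and PTX3 (54.4) but not in HP (126). LBP had a ratio of highest to lowest of 1.48 in LE at 1 week, where CRP had 2.67 and HP 6.43, and of 2.08 in HE at 1 week, where CRP had 3.24 and PTX3 15.4. Before calving, PTX3 (1.13), CRP (1.21) and HP (1.37) varied less than LBP (1.81), and in HE at 16 weeks the ratio of LBP was 12.6. In HE at 1 week, the library with much PTX3 (459) had 2.09 of SAA3, and the library with 38.0 of SAA3 had 29.9 of PTX3.

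Likeness over the 15 libraries was measured as the root mean square difference of centred log2 levels, against the 9033 other genes with a mean normalized count of at least 50. The 3 genes most like HP were CFB (1.05), LBP, also a member (1.09) and A2M (1.16), where HP alone varied by 1.97. The genes nearest to LBP were TUSC5 (0.57), CIDEC (0.62) and ORMDL3 (0.67), against 1.42 for LBP alone. PTX3 was nearest to ADAMTS4 (1.07), TP53INP1 (1.22) and RGS1 (1.24), with 2.09 for PTX3 alone. SAA3 had no close match, with KLB (1.84), GLCE (2.11) and GPR1 (2.13) against 2.82 for SAA3 alone. The libraries share groups and depth, so the values describe patterns and carry no test.

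Of 31 other acute phase and complement genes with values, 15 could be tested between before calving and HE at 1 week, and 3 were called as higher and 1 as lower before calving (2.4% of all genes were called). A2M, a broad proteinase inhibitor, differed by 2.87 on the log2 scale (SE 0.30, adjusted P = 0.00019). C3, the central complement component, differed by 2.48 (SE 0.27) and TF, the iron carrier transferrin, by 5.61 (SE 0.26), whereas ITIH4, an acute phase protein of cattle, was lower before calving (-2.15, SE 0.28). FGG, CFB, C4A and RBP4 passed with exonic reads alone, all higher before calving. Between LE and HE at 16 weeks 3 of 14 genes tested were called (4.5% of all genes), all higher in LE: A2M (2.82, SE 0.31), C3 (2.77, SE 0.31) and CFB (2.26, SE 0.36), the last encoding factor B of the alternative complement pathway. In the other 4 comparisons 0 were called, with A2M, FGG and C3 past the exonic threshold between LE and HE at 1 week. The median difference of this list was 1.05 between before calving and HE at 1 week, against 0.05 over all genes tested, and 1.17 against 0.05 between the diets at 16 weeks. The list mixes genes whose proteins rise in an acute phase response with those whose proteins fall, such as TF and RBP4. Its median and its calls thus have no single acute phase direction.

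The cytokines that induce acute phase proteins were hardly read in the tissue. IL6, IL1A and TNF had at most 10, 10 and 37 exonic reads in a library and IL1B at most 112, and 0 of the 16 cytokine and receptor genes with values were called in any comparison. IL6R alone passed with exonic reads, higher in LE than in HE at 16 weeks (0.85, SE 0.17, adjusted P = 0.00696). Of the signalling and transcription factors, 18 or 19 of 21 could be tested, and NFKB2 was the 1 gene called of 18 between LE and HE at 16 weeks (4.5% of all genes), at -1.41 (SE 0.27, adjusted P = 0.00667). Between before calving and HE at 1 week, 3 of 19 passed with exonic reads alone, a share near the 17.0% of all genes. Of these, NR3C1, the glucocorticoid receptor, was higher before calving (1.25, SE 0.22), and NFKBIA (-1.58, SE 0.28) and NFKBIZ (-0.98, SE 0.23) were lower.

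The partners and receptors of the members differed mostly between the diets at 16 weeks, where 4 of 13 genes tested were called and 10 passed with exonic reads, all higher in LE, against 4.5% and 11.2% of all genes. CD163, the haptoglobin receptor, stood at 5315 ± 1357 normalized counts in LE and 540 ± 92.4 in HE at 16 weeks (log2 difference 3.29, SE 0.22, adjusted P = 0.000218). CD14 differed by 2.66 (SE 0.34), TLR4 by 1.56 (SE 0.20) and TNFAIP6 by 1.24 (SE 0.23). HP, which binds CD163 through haemoglobin complexes, LBP, which acts with CD14 and TLR4, and PTX3, the partner of TNFAIP6, had log2 differences of 1.58, 1.80 and 1.94 that did not pass. TNFAIP6 was also called between before calving and HE at 1 week (2.52, SE 0.33), and CD163 passed with exonic reads alone between before calving and LE at 1 week, at 1709 ± 188 against 4523 ± 469 normalized counts (-1.41, SE 0.17, adjusted P = 0.00496). Between before calving and HE at 1 week, where LBP differed with exonic reads, TLR4 (1.47, SE 0.24) and LY96 (1.33, SE 0.25) also passed with exonic reads alone. LY96 (adjusted P = 0.00987) and TNFAIP6 (adjusted P = 0.00695) did so between LE and HE at 1 week. The other comparisons held 0 calls in this list.

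Markers of the cell types in the tissue moved with the same groups. All 10 adipocyte markers with values were read in all 15 libraries, while ADIPOQ and PLIN4 were not analysed here. Their summed level was 77828 to 79061 normalized counts before calving, 23121 to 61653 in HE at 1 week, 12943 to 46950 in HE at 16 weeks, 78336 to 95784 in LE at 1 week and 47405 to 55520 in LE at 16 weeks. Of the 10 tested, LPL, CIDEC, CIDEA and AQP7 were called as higher before calving than in HE at 1 week (2.4% of all genes were called), and CIDEA was called as higher before calving than in LE at 1 week (0.085%). The 6 fibroblast and mesothelium markers with values summed to 60124 to 71182 before calving and 6642 to 12101 in HE at 1 week. There PDGFRA, DCN and LUM of 5 tested were called as lower (2.4% of all genes). DCN, of 5 tested, was called as lower in HE than in LE at 16 weeks too (4.5%). DCN had the highest counts of the list. UPK3B had a higher mean in HE at 1 week, at 112 ± 24.3 against 69.9 ± 38.0 normalized counts before calving, and the other markers had lower means. Of the same adipocyte list, the lipases LIPE and PNPLA2 did not pass and had higher means in HE at 1 week, at 6862 ± 1750 against 3512 ± 655 and at 2850 ± 161 against 1972 ± 148 normalized counts before calving (SD, n = 3 each). The low HP and LBP of HE at 1 week thus came with lower summed levels of adipocyte and fibroblast markers, and their part in the result was not tested. The study also lists a lower share of aligned reads for the HE libraries, at total reads similar to those of the other groups. Its part in the result was not tested. In bulk tissue, fewer cells of a type and less RNA per cell cannot be told apart.

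Macrophage markers summed to 22440 to 28740 normalized counts in LE at 16 weeks and 2836 to 3795 in HE at 16 weeks, where CSF1R, CD14, CD163 and MSR1, of 6 tested in both analyses, were called as higher in LE (4.5% of all genes were called). CD68 (adjusted P = 0.00247) and the complement genes C1QA (0.000453), C1QB (0.000218) and C1QC (0.000272) passed with exonic reads alone, the last 3 being tested in the exonic analysis only, as was C1QA, which was higher before calving than in HE at 1 week (adjusted P = 0.00364). CD14 and CD163 belong to both this list and that of the partners. At 1 week the macrophage sums were 12086 to 26560 in LE and 2695 to 10014 in HE, and 9391 to 17221 before calving. LE 1 week library 1, with much HP and little PTX3, had the highest macrophage sum of its group (26560), and library 3, with the most PTX3, the lowest (12086). Neutrophil markers reached 1641 in LE 1 week library 2 against 897 and 215 in libraries 1 and 3, so the 2 libraries high in SAA3 and PTX3 had the highest and the lowest neutrophil sums of the group. The 8 endothelial markers summed to 20826 to 26890 before calving and 33407 to 69709 in HE at 1 week. Of the 8 tested at 16 weeks, EGFL7 was called as lower in LE than in HE (4.5% of all genes were called). VWF, TIE1 and CDH5 also had lower means in LE, whereas PECAM1, KDR, TEK and CLDN5 had higher means. The median log2 difference of the list was 0.10, against 0.05 over all genes tested.

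Liver RNA was near the limit of detection. ALB, which encodes albumin, had 0 to 19 reads per library, and APOA2, APOC3, APOH, AHSG, CYP2E1 and TAT had at most 6. Of the 12 hepatocyte markers, only APOA1 and TTR exceeded 100 reads in a library. Of the skin markers, KRT5 and KRT14 had at most 35 and 26 reads in a library, and DSP, which other epithelia also make, had up to 1412. In HE at 1 week KRT5 and KRT14 stood at 92.3 and 96.0 normalized counts in library 3, against 1.05 and 0 in library 1 and 10.9 and 16.3 in library 2. The sum of the skin list was 716 in library 3 and 72.3 and 263 in the other HE libraries at 1 week, against 397 to 664 before calving, and its part in the result was not tested. The hepatocyte, mammary, keratinocyte and neutrophil lists held 0 called genes in each of the 6 comparisons. The neutrophil gene S100A9 passed with exonic reads alone between before calving and HE at 1 week, at 91.5 ± 11.8 against 15.9 ± 5.65 normalized counts (SD, n = 3 each, log2 difference 2.55, limma adjusted P = 0.00213).

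**Figure D4:**
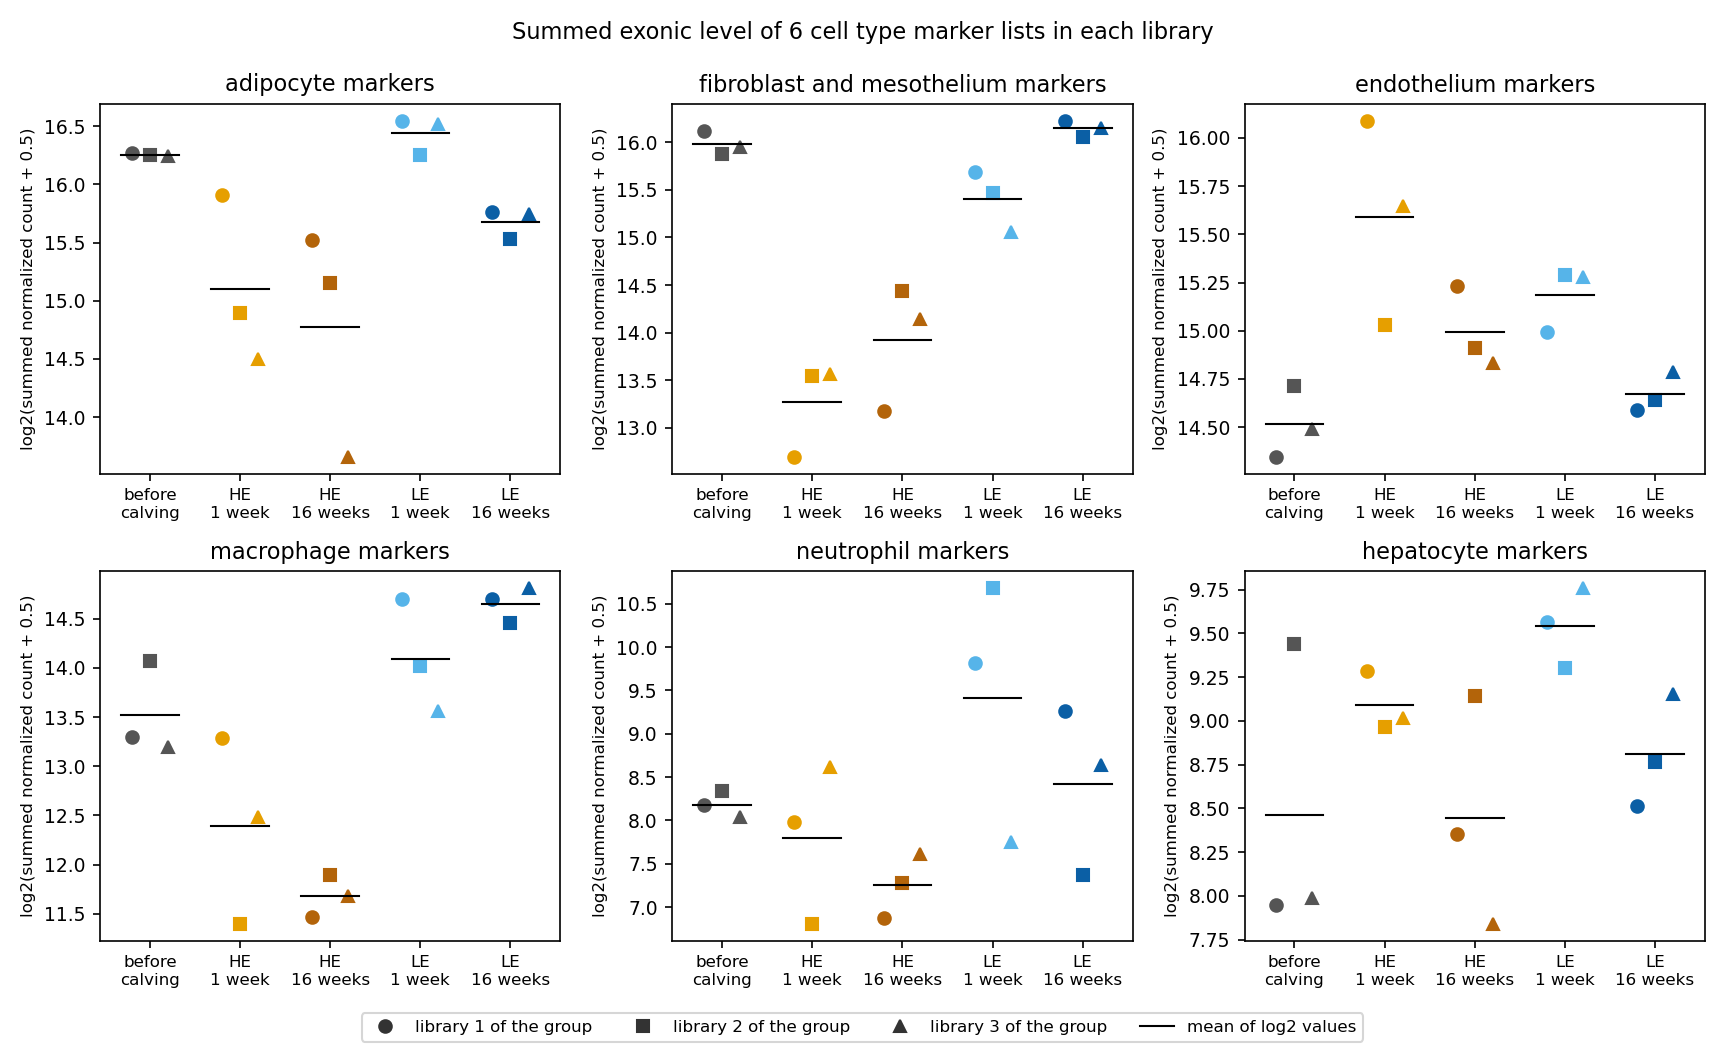
Summed normalized exonic counts of 6 lists of cell type markers, as log2(sum + 0.5), in each of the 15 libraries by group, with axes that differ between panels and do not start at 0. Points are libraries and bars are means of the log2 values. Adipocyte and fibroblast markers are lower in each HE library than in each library before calving, macrophage markers lie at 2836 to 3795 in HE and 22440 to 28740 in LE at 16 weeks, and neutrophil markers peak in LE 1 week library 2.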

How the data were processed

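RNA of 15 libraries was sequenced by the authors after ribosomal RNA depletion. Reads were trimmed with cutadapt 1.3 and aligned with TopHat2 to bosTau8, after bcl2fastq 2.15.0, and counted per gene with htseq-count, on exons and on entire genes apart. The authors deposited 6 tables, each for 6 libraries, with 13896 genes and 92 spike-ins (left out here). The values used are the 2 columns of mean normalized counts, made by the authors with DESeq2 size factors. The other 10 columns hold the authors' fold changes, errors, statistics and P-values and were not used, and no column belongs to other samples (0 columns).

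The means are printed to 15 digits, so the low values give the worth of 1 read in each of the 6 libraries, and the libraries were matched between tables by identical reads. Whole reads of each library were then solved as a lattice problem (sympy 1.14.0) and kept where they gave back every mean, for 13892 genes in each analysis (not COL1A1, COL1A2, COL3A1 and RN7SL1 on exons, nor COL1A2, COL3A1, FBN1 and RN7SL1 on entire genes). Size factors recomputed from the solved reads by the median of ratios differed from those of the authors by at most 0.0722%. A library has the one group that its tables share, and cannot be assigned to a named sample.

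Comparisons used limma 3.58.1 with a mean-variance trend (R 4.3.3) on log2(normalized count + 0.5), two-sided, on the 6 libraries of each table, with the size factors of that table, for genes with a mean of at least 10 on its scale. Exonic depth ran from 2028309 to 14772310 reads per library, and shares of reads carry exact binomial intervals. A gene was named when it is a member, is called in a fixed list, or is among the 3 genes most like a member. Genes outside that rule, such as those past the exonic threshold alone or shown for their low reads, were named after their values were seen. Members, lists and tests were chosen with earlier results of these data known. The code was tested on simulated data.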

Additional observations from a re-analysis of the deposited data

How the results depend on the processing

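Of the counts of members called, each 0 with all libraries, those of 3 comparisons changed. Between before calving and HE at 1 week, 2 members (HP and LBP) passed with exonic reads alone and 2 at adjusted P below 0.05 in both analyses, and between LE and HE at 1 week 1 member (LBP) passed with exonic reads alone. Leaving out a library gave 0 to 1 member between before calving and LE at 1 week (1 without LE 1 week replicate 1, PTX3) and 0 elsewhere. limma voom, a fit over 15 libraries, total count scaling, a pseudocount of 5, a filter of 1 and the entire-gene analysis alone gave 0 members in each comparison where they were run. The number of all genes called depended on the fit. Between LE and HE at 1 week it was 0, but 422 in a fit over 15 libraries and 659 without HE 1 week library 1. Between before calving and HE at 1 week it was 250, but 1236 in a fit over 15 libraries and 2 to 414 in the fits that left out a library. For the difference of the changes from 1 to 16 weeks, the settings other than voom and leaving out a library were chosen after seeing the data.

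Some single log2 differences turned sign. With limma voom, LBP turned to -0.16 between HE at 1 and 16 weeks and PTX3 to -0.43 in the difference of the changes. Over the fits that left out a library, PTX3 ran from -1.86 to 0.12 and CRP from -0.69 to 0.12 between before calving and HE at 1 week, and HP from -0.98 to 0.36 and CRP from -0.14 to 0.54 between before calving and LE at 1 week. For 1 week minus 16 weeks in HE, HP ran from -1.30 to 0.37, LBP from -0.56 to 1.25 and PTX3 from -0.75 to 1.20. For the same difference in LE, PTX3 ran from -0.085 to 2.86 and CRP from -0.052 to 0.63. In the difference of the changes, SAA3 ran from -0.088 to 3.35, LBP from -0.56 to 1.25 and PTX3 from -0.53 to 2.41. The cause was not tested. No paired analysis was possible because the solved libraries, numbered here by depth, cannot be assigned to named samples or cows, although the study took each cow's biopsies at all times, so libraries may share cows. The HE libraries are the shallowest in reads on genes, and 1 read there is worth up to 3.69 normalized counts. This limits members with few reads, among them SAA3, M-SAA3.2, ORM1 and CRP, and HP in HE 1 week library 2 (2 reads).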
